A study of Mus musculus with 92 samples.

Results

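The mouse mitochondrial chromosome carries 37 genes, and all of them were measured here: 13 protein-coding genes, 2 ribosomal RNA genes and 22 transfer RNA genes. They were taken as every gene whose chromosome is given as MT in the count tables, 37 of 54532 genes in all. The study deleted Eif4g2, a translation initiation factor, in the mouse intestine, and sequenced poly(A)-selected RNA from 92 libraries in 21 groups. Each library of a group came from its own animal or culture line.

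In the Rosa26 mice, a tamoxifen-activated Cre recombinase (CreER) expressed from the ubiquitous Rosa26 locus deleted 1 copy (flox/+, the controls) or both copies (flox/flox) of Eif4g2. Crypts and villi were taken 9 days after tamoxifen began (crypts 5 flox/+ and 4 flox/flox, villi 5 and 5). In the Vil1 mice the CreER was driven in the intestinal epithelium by Vil1, tamoxifen was given at 100 mg/kg, and tissue was taken at 3 months (crypts 4 flox/+ and 3 flox/flox, villi 4 and 6). Crypts and villi shared animals. All these control mice carried CreER and received tamoxifen too. Small intestinal organoids with Rosa26 CreER formed 2 sets, sampled on day 6. Set 1 held 3 flox/flox lines, each with 0.5 µM 4-hydroxytamoxifen (4-OHT) or with the solvent DMSO. In set 2 every line received 4-OHT (4 flox/flox, 4 flox/+ and 4 lines with CreER and unfloxed Eif4g2). Fetal intestinal spheroids, which are cultures of fetal epithelium, came from 6 flox/flox and 5 flox/+ Rosa26 CreER lines, each with 4-OHT or DMSO. The last experiment gave 4 organoid lines without 4-OHT 3, 5 or 10 µM A-485, an inhibitor of the acetyltransferases CBP and EP300, or DMSO for 4 days. The sample labels give 1 of those lines as Eif4g2(+/+) and the other 3 as flox/flox.

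Mitochondrial DNA is a small circle that is transcribed on both strands into long precursors, from which the transfer RNAs are cut out and the messenger and ribosomal RNAs released between them. The mRNAs encode core subunits of the respiratory chain complexes I, III and IV and of ATP synthase, and the rRNAs build the ribosome that translates them. The proteins that copy, transcribe, process and translate this genome, and most respiratory subunits, are encoded in the nucleus. The rRNA genes mt-Rnr1 and mt-Rnr2 lie at the start of the precursor that carries most of the mRNAs, whereas mt-Nd6 is read from the opposite strand. Short poly(A) tails are added to most mitochondrial mRNAs, and mature tRNAs carry none, so tRNA counts in a poly(A) library come from a small captured part.

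Library totals ran from 8652040 to 37611126 counts, with the A-485 experiment lowest at 8652040 to 16436145. Eif4g2 was lower in flox/flox than in control libraries in each experiment in which Cre was activated. In Rosa26 crypts it was 498 ± 31.3 CPM (counts scaled to a common library total, SD, n = 5) in flox/+ and 119.1 ± 29.5 CPM (n = 4) in flox/flox. In the spheroid flox/flox lines it was 852 ± 111 CPM with DMSO and 131 ± 63.8 CPM with 4-OHT (SD, n = 6 each). Summed crypt markers (Lgr5, Olfm4, Lyz1, Mki67) were 17826 to 23444 CPM in Rosa26 flox/+ crypts and 1452 to 8448 CPM in flox/flox crypts, and 7952 to 12749.6 against 629 to 1543 CPM in Vil1 crypts, so the crypt label was least matched by these markers in flox/flox animals. In these bulk libraries fewer cells of a type and less RNA per cell cannot be told apart. The Y-linked gene Ddx3y reached 10 counts in 5 of 5 flox/+ and 1 of 4 flox/flox Rosa26 crypt libraries. In Rosa26 villi it did so in 5 of 5 flox/+ and 2 of 5 flox/flox libraries. Genotype and sex were thus partly confounded in both tissues of the Rosa26 mice.

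How a mitochondrial mRNA can be counted depends on its sequence, because a stretch of the mouse mitochondrial chromosome also lies in nuclear chromosome 1. In GRCm38 the nuclear block spans chr1:24611535-24616197 on the minus strand, holds 7 annotated copies, and matches chrMT:6381-11042. The copy of mt-Co2 (Gm28661) is identical over all of its 681 bases, so a read from it fits both places equally well. The first 120 bases are shown for both genes, with no capitals because no base differs; mt-Co2 is chrMT:7013-7132 on the plus strand and Gm28661 is chr1:24615446-24615565 on the minus strand.
mt-Co2: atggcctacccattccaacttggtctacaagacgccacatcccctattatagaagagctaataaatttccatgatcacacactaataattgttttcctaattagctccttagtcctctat
Gm28661: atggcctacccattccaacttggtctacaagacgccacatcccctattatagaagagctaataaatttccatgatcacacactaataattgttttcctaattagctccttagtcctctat
The copy of mt-Nd3 differs at 1 base of 345 (T3C, counted from the start of mt-Nd3). The first 60 bases are shown with that base in capitals, chrMT:9459-9518 plus strand and chr1:24613060-24613119 minus strand.
mt-Nd3: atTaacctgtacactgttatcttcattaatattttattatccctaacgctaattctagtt
Gm28438: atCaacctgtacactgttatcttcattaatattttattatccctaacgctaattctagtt
The copy of mt-Co1 covers only the last 492 bases of the gene and differs at 6, all at its start (T1056A, C1057T, A1059G, A1060G, C1062A and A1066T, counted from the start of mt-Co1). These 80 bases are chrMT:6381-6460 plus strand and chr1:24616118-24616197 minus strand, with the differing bases in capitals.
mt-Co1: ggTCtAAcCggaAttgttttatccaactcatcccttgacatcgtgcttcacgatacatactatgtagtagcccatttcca
Gm29216: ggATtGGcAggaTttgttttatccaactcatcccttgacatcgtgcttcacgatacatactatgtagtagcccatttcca

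The share of 50-base windows that also occur in a nuclear transcript sorted the 13 mRNAs into groups. It was 100% for mt-Co2, 99.9% for mt-Co3, 99.5% for mt-Atp6, 98.8% for mt-Nd4l and 98% for mt-Nd3. Together with mt-Atp8, which lies opposite an unannotated stretch of the nuclear block (chr1:24614609-24614812) and was placed by position alone, these 6 mRNAs are called copied below. It was 62.2% for mt-Nd4 and 51.1% for mt-Co1, called partly copied. It was 8.19% for mt-Nd2, 7.61% for mt-Nd5 and 0% for mt-Nd1, mt-Nd6 and mt-Cytb, called not copied. How reads that fit several places were treated is not given in the sources used here, so the counts of the copied genes are uncertain in size.

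Neighbouring mitochondrial genes also share bases, which can make a read unassignable. The last bases of mt-Atp8 (chrMT:7907-7969, plus strand) hold the first 43 of mt-Atp6, shown in capitals.
mt-Atp8 end: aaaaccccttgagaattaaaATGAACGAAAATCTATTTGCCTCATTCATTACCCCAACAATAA
The end of mt-Nd4l (chrMT:10144-10173, plus strand) holds the first 7 bases of mt-Nd4, in capitals.
mt-Nd4l end: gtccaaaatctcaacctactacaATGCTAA
The end of mt-Nd6 (chrMT:13552-13611, minus strand) lies opposite the end of mt-Nd5 over 14 bases, in capitals.
mt-Nd6 end: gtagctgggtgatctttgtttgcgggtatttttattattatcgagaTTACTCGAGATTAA

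Per length, mt-Co1, the catalytic subunit of cytochrome c oxidase (complex IV), had the highest level of the mRNAs and rRNAs in all 92 libraries. Its median over libraries was 18960 CPM per kb of gene. The order continued with mt-Nd1, a membrane subunit of complex I, at 5723 CPM per kb and mt-Cytb, the only mitochondrially encoded subunit of complex III, at 4509 CPM per kb. The complex I subunits mt-Nd2, mt-Nd5, mt-Nd4 and mt-Nd6 followed at 2249, 1845, 1456 and 1443 CPM per kb, with library ranges that overlapped one another. The rRNAs stood at 749 CPM per kb for mt-Rnr2 (16S) and 647 CPM per kb for mt-Rnr1 (12S), which in poly(A)-selected RNA says little of their cellular level. By these medians the copied genes were at the bottom: the complex IV subunits mt-Co2 and mt-Co3 at 318 and 216 CPM per kb, the ATP synthase subunit mt-Atp6 at 217, the complex I subunits mt-Nd4l and mt-Nd3 at 73.5 and 61.6, and the ATP synthase subunit mt-Atp8 at 55.9 CPM per kb. They also varied most between libraries. The highest library exceeded the lowest 23.4-fold for mt-Co1, 29.8-fold for mt-Nd1 and 43.9-fold for mt-Cytb. It did so 131-fold for mt-Co3, 216-fold for mt-Co2, 288-fold for mt-Atp6, 718-fold for mt-Nd4l and 13249-fold for mt-Atp8. The lowest mt-Atp8 library had only 2 counts, so its ratio is no measure of size. For mt-Nd3, at 48.3-fold, the range was close to that of mt-Cytb.

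**Figure D1:**
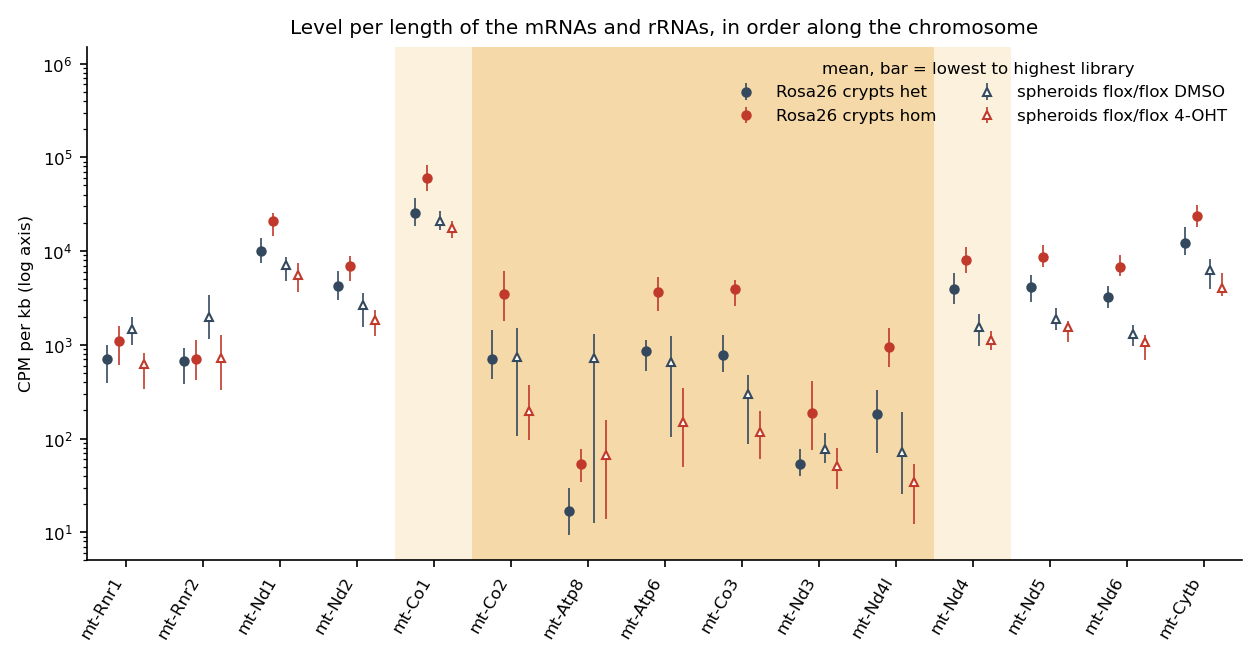
Level per length (CPM per kb, log axis) of the 13 mRNAs and 2 rRNAs in the order of their position along the chromosome, in 4 groups; points are group means and bars run from the lowest to the highest library. Dark shading marks the 6 copied genes and light shading the 2 partly copied ones; mt-Co1 is the highest gene in each group shown, and the group means of all 6 copied genes lie below those of mt-Co1, mt-Nd1 and mt-Cytb.

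The share of all counts on the 37 genes was taken in each library. In tissue it ran from 2.39% to 40.3%, and in organoids and spheroids from 1.81% to 11.1%. Rosa26 flox/flox crypts had shares of 25.2%, 20.4%, 16.2% and 13.7%, against 9.01%, 12.4%, 6.24%, 8.77% and 6.36% in flox/+ crypts, with no overlap. Vil1 crypts had 40.3%, 30.4% and 36.4% in flox/flox and 19.4%, 25.6%, 30.8% and 17.5% in flox/+ animals, where 1 flox/+ library (30.8%) lay above 1 flox/flox library (30.4%). The flox/flox mean was higher by 12.4 percentage points in Vil1 crypts.

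In villi the flox/flox mean was lower, not higher, and the groups overlapped. Rosa26 villi had 2.74%, 3.68%, 24.5%, 9.63% and 8.27% in flox/+ and 3.60%, 2.39%, 5.83%, 6.54% and 6.76% in flox/flox animals. Replicate 3 of the flox/+ villi stood far above the other libraries. Vil1 villi had 17.1 ± 7.15% (SD, n = 4) in flox/+ and 12.5 ± 5.99% (n = 6) in flox/flox animals.

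Cultures had lower and tighter shares. Organoid set 1 had 3.72%, 3.70% and 3.35% with DMSO and 3.34%, 3.65% and 2.99% with 4-OHT, lower in each of the 3 lines. The flox/flox spheroids had 7.23%, 7.86%, 4.69%, 6.08%, 6.30% and 4.81% with DMSO and 5.46%, 4.5%, 4.51%, 3.47%, 5.57% and 4.38% with 4-OHT, lower in each of the 6 lines although the groups overlapped. With A-485 the share was 3.49 ± 0.189% (SD, n = 4) in DMSO and 2.29 ± 0.382%, 2.62 ± 0.55% and 2.44 ± 0.525% at 3, 5 and 10 µM, lower than DMSO in each of the 4 lines at each dose. A share is a part of a fixed total, so these values alone cannot tell more mitochondrial RNA from less nuclear RNA.

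**Figure D2:**
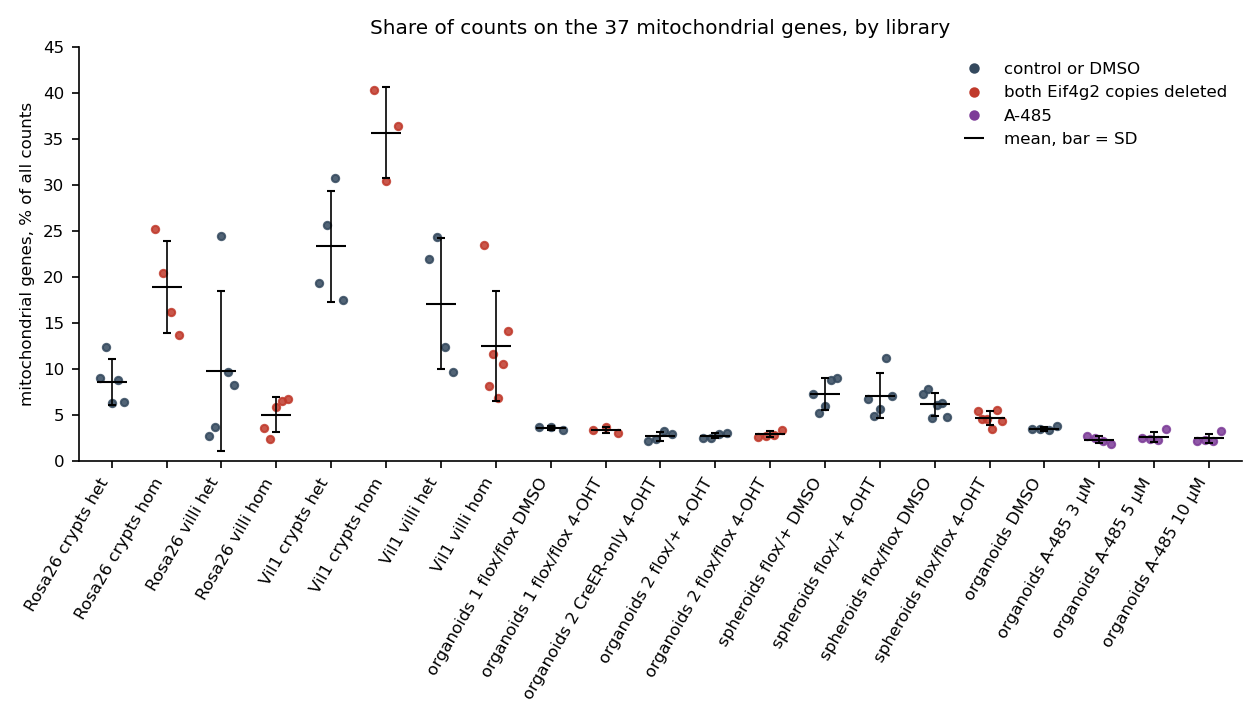
Share of all counts on the 37 mitochondrial genes (percent, y axis) in each of the 92 libraries, by group; bars mark the mean and SD. The 4 flox/flox Rosa26 crypt libraries sit between 13.7% and 25.2%, above all 5 flox/+ crypt libraries, and 1 flox/+ Rosa26 villus library stands at 24.5%.

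In Rosa26 crypts, 12 of the 13 mRNAs rose in flox/flox animals and none fell (edgeR quasi-likelihood test, Benjamini-Hochberg adjusted p under 0.05 over all tested genes). Of all genes tested, 8.63% rose in this comparison. The 13 shared the direction, with log2 fold changes from 0.84 to 2.52 and a median of 1.39.

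The copied genes had the largest fold changes. mt-Co3 counted 533, 987, 618, 494 and 402 CPM in flox/+ and 2828, 3802, 3591 and 2051 CPM in flox/flox crypts, every flox/flox library above the highest control, for a log2 fold change of 2.45 ± 0.32 (SE, adjusted p = 0.0013). mt-Co2 was 418, 976, 338, 352 and 298 CPM in flox/+ and 4214, 2146, 1878 and 1234 CPM in flox/flox crypts (2.49 ± 0.53, adjusted p = 0.012). The groups did not overlap for either gene. The other 4 copied genes rose by log2 fold changes of 1.80 (mt-Atp8), 1.94 (mt-Nd3), 2.24 (mt-Atp6) and 2.52 (mt-Nd4l), and the median of the 6 was 2.34.

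The genes classed as not copied rose too, at a median log2 fold change of 1.20 over the 5. mt-Nd1 was 10080, 13238, 7190, 10144 and 7411 CPM in flox/+ and 24298, 24445, 17763 and 13833 CPM in flox/flox crypts, with no overlap (1.20 ± 0.30, adjusted p = 0.023). mt-Cytb was 14533, 20610, 10267, 14195 and 10485 CPM against 35687, 29451, 23722 and 20518 CPM, where the lowest flox/flox library was just below the highest control (1.10 ± 0.32, adjusted p = 0.037). mt-Nd6, read from the opposite strand, rose by 1.20 ± 0.28 (adjusted p = 0.017), with 1276 to 2215 CPM in flox/+ and 2778 to 4652 CPM in flox/flox crypts. mt-Nd2 missed the threshold at 0.84 ± 0.32 (adjusted p = 0.088). mt-Co1, partly copied, rose from 28531 to 57329 CPM in flox/+ to 67844 to 126716 CPM in flox/flox crypts (1.39 ± 0.34, adjusted p = 0.021).

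Without flox/+ replicate 3, and likewise without replicate 5, the count in Rosa26 crypts dropped to 6 mRNAs, of which 5 were copied and 1 was not. mt-Nd4 and mt-Cytb missed the threshold in 7 of the 9 fits that left out 1 library, and mt-Nd1, mt-Nd3, mt-Co1 and mt-Nd5 in 3, 4, 2 and 2 of the alternative fits. Summed immune markers were 135 to 808 CPM in flox/+ and 109 to 906 CPM in flox/flox crypts, stromal markers 51.7 to 1033 and 56.8 to 3028 CPM, and red cell markers 12.3 to 144 and 1.12 to 11.4 CPM; their part in the result was not tested.

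In Rosa26 villi, no mRNA was called in the same contrast (edgeR; 5 of 13 at an unadjusted p under 0.05; DESeq2's Wald test called 1, mt-Nd4l), while 18.2% of all tested genes fell. All 13 log2 fold changes were negative, from -2.26 to -0.83. The difference between the villus and crypt effects was tested directly, and 7 of 13 mRNAs were lower in that contrast, against 4.86% of all genes. They were all 6 copied genes, led by mt-Nd4l at -4.63 ± 1.08 and mt-Co2 at -4.24 ± 0.95 (adjusted p = 0.014 and 0.011), and mt-Cytb at -2.34 ± 0.73 (adjusted p = 0.047). The count was 3 or 4 without any one of crypt flox/flox replicates 1, 3 and 4, crypt flox/+ replicates 1, 3, 4 and 5, villus flox/flox replicates 1 and 2 and villus flox/+ replicates 3 and 4, 11 without crypt flox/flox replicate 5 and 13 without villus flox/+ replicate 1 or 2. It was 3 without the filter on low counts and 13 with DESeq2's Wald test. Crypts and villi shared animals, and with the animal as a replicate block, over the 9 animals with both tissues and in a fit added after the results had been seen, no mRNA was called in this contrast (4 of 13 at an unadjusted p under 0.05), where 1.61% of all genes were lower. mt-Co2 was then at -3.37 ± 1.10 (adjusted p = 0.104). Leaving out flox/+ villus replicate 1, whose share of 2.74% was the lowest of its group, gave 4 called mRNAs in villi. With the animal series as a covariate, 3 mRNAs were called lower in villi. The villus and crypt contrast was not fitted with that covariate.

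Vil1 crypts had the same signs as Rosa26 crypts, but no mRNA was called by edgeR, while 29.3% of all tested genes were called in one direction or the other. At an unadjusted p under 0.05 there were 8 of 13, and DESeq2's Wald test called 7. mt-Nd1 was 21906, 26143, 34743 and 20072 CPM in flox/+ and 48910, 31800 and 40791 CPM in flox/flox crypts, so that 1 control lay among the flox/flox values (0.79 ± 0.30, adjusted p = 0.083). That control was replicate 3, and without it 10 mRNAs were called; without flox/flox replicate 2, 1 was called. The medians were 1.65 over copied and 0.66 over uncopied mRNAs.

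In Vil1 villi, mt-Nd2, a complex I subunit, was the only mRNA that fell, where 21.6% of all tested genes fell (2 of 13 mRNAs at an unadjusted p under 0.05). It was 11385, 11013, 5991 and 4630 CPM in flox/+ and 7924, 2683, 3684, 2747, 3302 and 5051 CPM in flox/flox villi (-1.11 ± 0.39, adjusted p = 0.035), and the groups overlapped. The call was lost without the low-count filter, with DESeq2's Wald test, with a covariate for Ddx3y and without any one of flox/+ replicates 1 and 2 and flox/flox replicates 2 to 6. Without flox/flox replicate 1, the library with the highest share of its group, 6 mRNAs were called; without flox/+ replicate 4 there were 2. Summed immune markers were 350 to 789 CPM in flox/+ and 74.9 to 255 CPM in flox/flox villi, and their part was not tested. No mRNA differed between the villus and crypt effects of the Vil1 mice (edgeR; 6 of 13 at an unadjusted p under 0.05; DESeq2's Wald test called 3), against 6.14% of genes that were lower in that contrast; without flox/flox villus replicate 1 there were 9. With the animal as a replicate block, over 7 animals, there were again none (7 of 13 at an unadjusted p under 0.05), where 4.79% of all genes were lower.

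Crypts were also compared with villi among the flox/+ control animals. In the Rosa26 controls 4 mRNAs were lower in crypts, mt-Co1, mt-Co2, mt-Nd3 and mt-Nd4l, as were 36.4% of all tested genes. Their log2 fold changes were -1.33, -1.62, -1.44 and -2.01 after TMM scaling (a factor per library that sets the typical gene equal), whereas the plain log2 ratios of mean CPM were -0.33, -0.62, -0.44 and -1.01. These 4 calls were all lost without flox/+ villus replicate 3, the library with a share of 24.5%, and also without crypt replicates 3, 4 or 5 and with the animals as a replicate block; without villus replicate 1 there were 11. There were 1 without crypt replicate 1 or villus replicate 4, and 2 without villus replicate 5. In the Vil1 controls mt-Co2 alone was lower in crypts (-1.85 ± 0.72, adjusted p = 0.050; plain log2 ratio -1.23), where 67.9% of all genes were called in either direction. That call was lost with the replicate block, without the low-count filter, and without crypt replicates 1, 2 or 4 or villus replicates 1 or 2, and without crypt replicate 3 there were 2.

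Few mitochondrial mRNAs passed the test in organoids. In set 1, mt-Nd3 was the only mRNA that fell, from 23.4, 25.9 and 16.1 CPM with DMSO to 15.0, 14.9 and 15.1 CPM with 4-OHT (-0.59 ± 0.17, adjusted p = 0.032), among 17.2% of genes that fell. Every 4-OHT library was below every DMSO library, but the call was lost without DMSO replicate 1 or 2 or 4-OHT replicate 2, and without 4-OHT replicate 1 the only call was a rise of mt-Atp6. The abundant mt-Nd1 was 5178, 4861 and 4484 CPM with DMSO and 4458, 4614 and 4122 CPM with 4-OHT (-0.19 ± 0.10, adjusted p = 0.18).

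In set 2, edgeR called no mRNA between flox/flox and flox/+ lines, none between flox/flox and CreER-only lines and none between flox/+ and CreER-only lines. At an unadjusted p under 0.05 there were 0, 1 and 0 of 13, and DESeq2's Wald test called none in any of the 3. Over all genes, 24.3% and 23.5% fell in the contrasts of flox/flox with flox/+ and with CreER-only lines, and 0.113% were called in either direction between flox/+ and CreER-only lines. Leaving out 1 line gave 1 call without flox/+ replicate 4, and against the CreER-only lines 2 without CreER-only replicate 3 and 1 without its replicate 4.

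In the flox/flox spheroids, 5 mRNAs fell with 4-OHT, all of them copied, while 10% of all tested genes fell (8 of 13 at an unadjusted p under 0.05). mt-Atp8 was 76.0, 264, 171, 244, 122 and 2.54 CPM with DMSO and 32.5, 20.4, 14.1, 7.81, 3.56 and 2.86 CPM with 4-OHT, lower in 5 of 6 lines (-3.5 ± 0.79, adjusted p = 0.0043). mt-Co2 was 574, 623, 206, 1030, 548 and 72.7 CPM with DMSO and 256, 191, 160, 65.9, 72.8 and 66.9 CPM with 4-OHT (-2.0 ± 0.56, adjusted p = 0.015). The line of replicate 6 was already low with DMSO for both genes, so the groups overlapped. mt-Atp6, mt-Co3 and mt-Nd3 fell by 2.25, 1.44 and 0.66 on the log2 scale, with mt-Atp6 and mt-Nd3 missing the threshold in 5 and 6 of the alternative fits. The median was -1.72 over the 6 copied genes and -0.44 over the 5 uncopied ones, none of which was called in this fit. mt-Nd1 was 8352, 8022, 4594, 6540, 7442 and 6192 CPM with DMSO and 6487, 4762, 5203, 3477, 7184 and 5014 CPM with 4-OHT, lower in 5 of 6 lines (-0.44 ± 0.25, adjusted p = 0.25).

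Each spheroid line was sampled under both treatments, and with the line as a replicate block 7 mRNAs were called lower: mt-Nd1, mt-Nd2, mt-Cytb, mt-Atp8, mt-Atp6, mt-Co3 and mt-Nd3. The 10% of all genes given above is from the fit without the block, so this count has no background beside it. mt-Co2 was then not called (adjusted p = 0.066). Leaving out DMSO replicate 1 or 4-OHT replicate 2 left 3 calls.

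The flox/+ spheroids, treated with the same 4-OHT, had no called mRNA (edgeR, 0 of 13 at an unadjusted p under 0.05, none with DESeq2's Wald test), and 0% of all genes were called. The difference between the flox/flox and flox/+ responses was not called for any mRNA (edgeR; 3 of 13 at an unadjusted p under 0.05; none with DESeq2's Wald test), against 1.62% of all genes in either direction. With the line as a replicate block, in a fit added after the results had been seen, still none was called (5 of 13 at an unadjusted p under 0.05), and mt-Atp8 came nearest (-3.19 ± 1.08, adjusted p = 0.0679). Among 4-OHT libraries no mRNA separated flox/flox from flox/+ lines (6 of 13 at an unadjusted p under 0.05, and 3 with DESeq2's Wald test), where 6.13% of genes fell. Among DMSO libraries none did either (1 of 13 at an unadjusted p under 0.05, none with DESeq2's Wald test), nor did any other gene, 0% of those tested.

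**Figure D3:**
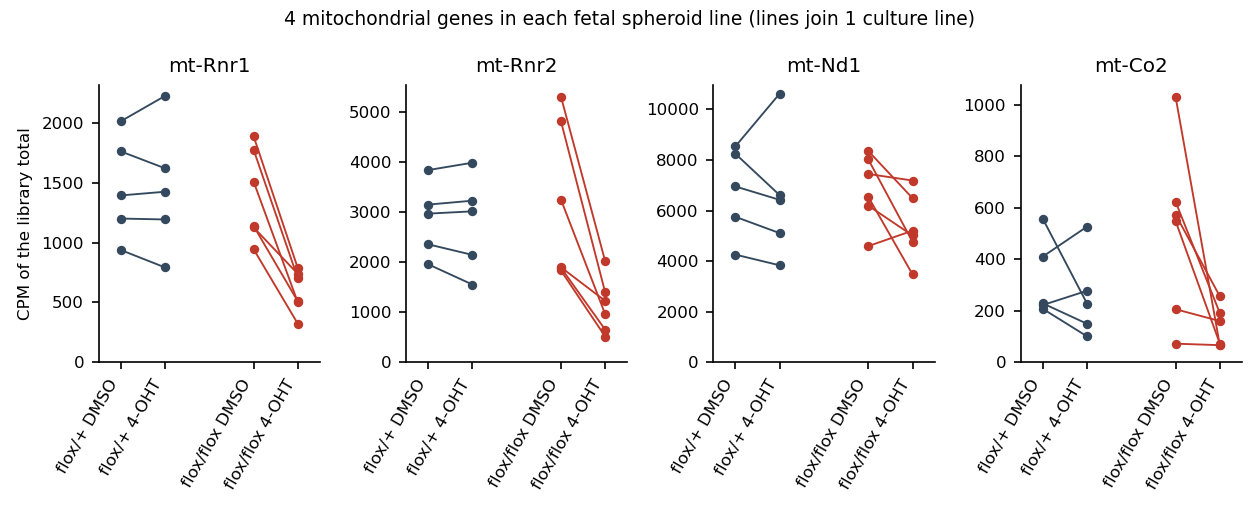
CPM (y axis, from 0) of mt-Rnr1, mt-Rnr2, mt-Nd1 and mt-Co2 in each spheroid line with DMSO and with 4-OHT; each line joins the values of 1 culture line, 5 flox/+ and 6 flox/flox. Both rRNAs go down in all 6 flox/flox lines, and mt-Nd1 goes down in 5 of 6.

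Spheroids and organoids were compared among flox/+ lines with 4-OHT. There 8 of 13 mRNAs were higher in spheroids and none was lower, while 25.1% of all genes were higher and 22.8% lower (47.9% in either direction). mt-Nd2, mt-Nd3, mt-Nd4l, mt-Nd5 and mt-Nd6 were not called, and of the 12 tRNAs tested 2 were higher (mt-Tp and mt-Tl1) and 2 lower (mt-Tr and mt-Ts2). mt-Co1 was 39937, 29736, 31803, 67631 and 39976 CPM in spheroids and 10251, 10584, 12482 and 12360 CPM in organoids, with no overlap (2.00 ± 0.26, adjusted p = 0.00029). mt-Co3 was higher by 2.09 ± 0.26 (adjusted p = 0.00026). mt-Co1 made up 58.9% to 66.3% of the counts of the 13 mRNAs in these spheroids and 42.1% to 45.1% in the organoids. The count was 5, 4 and 5 without organoid replicates 1, 2 and 3.

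Several mitochondrial mRNAs fell with A-485, and their number did not follow the dose: 6 of 13 fell at 3 µM, 2 at 5 µM and 5 at 10 µM, while 8.42%, 25.1% and 32.6% of all genes fell. The count at 5 µM was below the share of all genes, and that at 10 µM was near it. The 3 doses share their DMSO controls and lines. mt-Co1 and mt-Co3 fell at every dose. mt-Co1 was 17650, 16637, 15794 and 17614 CPM with DMSO, 13123, 11496, 10190 and 9436 CPM at 3 µM, 11803, 10512, 10597 and 14681 CPM at 5 µM and 9995, 10257, 9679 and 13019 CPM at 10 µM (-0.73, -0.58 and -0.78, each ± 0.13). All treated libraries lay below all DMSO libraries for mt-Co1. mt-Co3 fell by 1.60, 1.30 and 1.43 on the log2 scale. mt-Nd1, mt-Nd4, mt-Nd5 and mt-Cytb were also called at 3 µM, and mt-Nd1, mt-Nd5 and mt-Nd6 at 10 µM. Each of these further calls was lost in some of the alternative fits, from 1 (mt-Nd1 at 3 µM) to 9 (mt-Nd5 at 3 µM).

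With the 4 lines as a replicate block, 7 mRNAs were called at 5 µM and 8 at 10 µM. The shares of all genes given above are from the fit without the block, so these counts have no background beside them. Replicate 4 carried the highest mitochondrial share at 5 and 10 µM. Without its treated library 8 were called at 5 µM and 9 at 10 µM. Without its DMSO library 3 were called at 3 µM and at 10 µM, and without 10 µM replicates 1, 2 or 3 there were 2 at 10 µM.

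**Figure D4:**
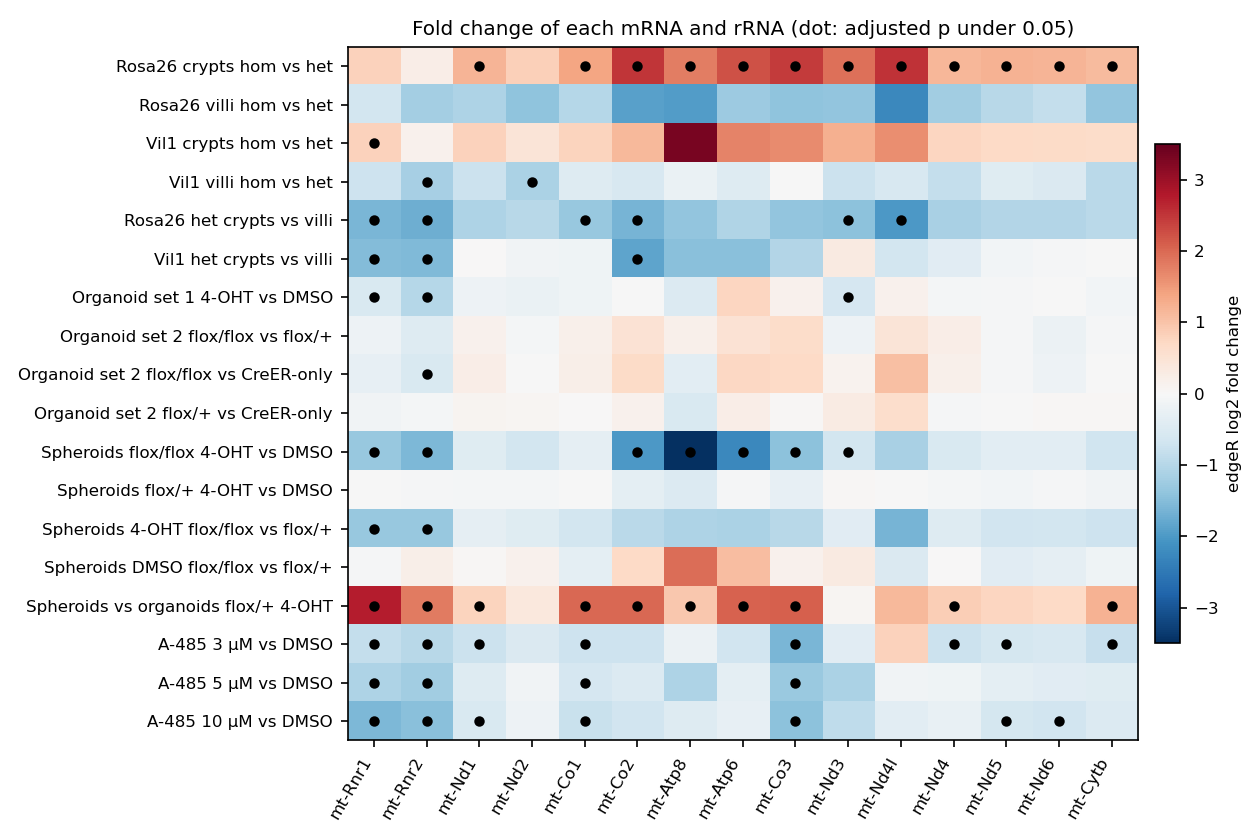
edgeR log2 fold change (color scale, red higher and blue lower in the first-named group) of the 2 rRNAs and 13 mRNAs, in order along the chromosome, in 18 comparisons; dots mark an adjusted p under 0.05. In Rosa26 crypts 12 mRNAs carry a dot, whereas in organoid set 1, flox/flox spheroids and A-485 both rRNAs do.

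Both rRNAs fell in organoid set 1, in the flox/flox spheroids with 4-OHT and at each dose of A-485. Of all genes, 17.2% fell in set 1, 10% in those spheroids, and 8.42%, 25.1% and 32.6% at 3, 5 and 10 µM A-485. In set 2 only mt-Rnr2 was called, and only against CreER-only lines, where 23.5% of all genes fell. In organoid set 1, mt-Rnr2 was 1638, 1526 and 1168 CPM with DMSO and 809, 827 and 588 CPM with 4-OHT (-1.01 ± 0.18, adjusted p = 0.0048), with no overlap. mt-Rnr1 went from 358, 378 and 284 CPM to 262, 266 and 197 CPM (-0.53 ± 0.15, adjusted p = 0.033), a call that was lost without DMSO replicate 1 or 2 or 4-OHT replicate 1. In set 2, mt-Rnr2 fell in flox/flox against CreER-only lines (-0.53 ± 0.19, adjusted p = 0.042), a call that held in only 3 of the 8 fits that left out 1 library (not without flox/flox replicates 1, 2 or 3 or CreER-only replicates 3 or 4) and was lost without the low-count filter. It missed the threshold against flox/+ lines (-0.45 ± 0.19, adjusted p = 0.076).

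The rRNAs of the flox/flox spheroids fell with 4-OHT in all 6 lines. mt-Rnr1 was 1887, 1774, 1126, 1138, 1508 and 945 CPM with DMSO and 785, 701, 738, 509, 500 and 322 CPM with 4-OHT, with no overlap (-1.32 ± 0.29, adjusted p = 0.0032). mt-Rnr2 was 5305, 4813, 1898, 1890, 3250 and 1834 CPM against 2018, 1398, 1228, 653, 962 and 515 CPM (-1.57 ± 0.37, adjusted p = 0.0053), with overlap between lines. In the flox/+ lines mt-Rnr1 was 2011, 1200, 1760, 1393 and 938 CPM with DMSO and 2223, 1192, 1619, 1424 and 792 CPM with 4-OHT (-0.02 ± 0.31, adjusted p = 1.0). The difference between the 2 responses was -1.30 ± 0.42 for mt-Rnr1 and -1.52 ± 0.54 for mt-Rnr2, neither called (adjusted p = 0.13 and 0.17). Within lines, the log2 ratio of CPM with 4-OHT to CPM with DMSO ran from -1.59 to -0.61 in the 6 flox/flox lines and from -0.24 to 0.14 in the 5 flox/+ lines for mt-Rnr1. For mt-Rnr2 it ran from -1.83 to -0.63 and from -0.33 to 0.05, and the genotypes overlapped for neither gene. With the line as a replicate block, in the added fit, the difference between the responses was called for both, at -1.28 ± 0.18 for mt-Rnr1 and -1.48 ± 0.21 for mt-Rnr2 (edgeR adjusted p = 0.000484 and 0.000498), where 10.1% of all genes were lower. Between flox/flox and flox/+ lines with 4-OHT, both rRNAs were lower (-1.33 ± 0.30 and -1.33 ± 0.38, adjusted p = 0.0067 and 0.028), as were 6.13% of all genes. The call of mt-Rnr2 held in 5 of the 11 fits that left out 1 library (not without flox/flox replicates 4, 5 or 6 or flox/+ replicates 1, 3 or 4) and was lost without the low-count filter. Both calls were lost with the replicate number as a block, which joins different lines here.

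With A-485 both rRNAs fell at every dose, and by more at 10 µM than at 3 µM. mt-Rnr1 was 541, 430, 407 and 532 CPM with DMSO, 360, 273, 248 and 295 CPM at 3 µM, 246, 200, 219 and 287 CPM at 5 µM and 166, 155, 175 and 204 CPM at 10 µM. The DMSO libraries overlapped with none of the treated ones, and each line was lower at 10 µM than at 3 µM. The log2 fold changes were -0.82 ± 0.14, -1.08 ± 0.14 and -1.58 ± 0.14 for mt-Rnr1 (adjusted p = 0.00041, 4.7e-06 and 2.3e-08). For mt-Rnr2 they were -0.98, -1.22 and -1.47, each ± 0.14 (adjusted p = 9.0e-05, 1.5e-06 and 6.2e-08). The differences between doses were not tested.

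In tissue, mt-Rnr1 rose in Vil1 flox/flox crypts, from 774, 965, 996 and 573 CPM to 1257, 1210 and 1462 CPM with no overlap (0.80 ± 0.24, adjusted p = 0.041), a call lost without the low-count filter, with the Ddx3y covariate and in 5 of 7 fits that left out 1 library. mt-Rnr2 fell in Vil1 flox/flox villi, where it was 3656, 3734, 2513 and 2318 CPM in flox/+ and 2435, 1299, 1268, 915, 1674 and 1362 CPM in flox/flox animals (-1.17 ± 0.30, adjusted p = 0.0068), with 1 flox/flox library among the controls. In Rosa26 crypts neither was called, at 0.82 ± 0.39 for mt-Rnr1 and 0.24 ± 0.41 for mt-Rnr2. Both rRNAs were lower in crypts than in villi of the controls, by TMM-scaled log2 fold changes of -1.59 and -1.72 in Rosa26 and -1.51 and -1.55 in Vil1 mice (mt-Rnr1 and mt-Rnr2). Of all genes, 36.4% and 32.7% were lower in these contrasts. The plain log2 ratios of mean CPM were smaller, at -0.59 and -0.72 in Rosa26 and -0.90 and -0.95 in Vil1 mice. With the animals as a replicate block both Rosa26 calls were lost, and that of mt-Rnr1 also without the low-count filter or without villus replicate 3. Both rRNAs were higher in flox/+ spheroids than in flox/+ organoids (2.75 ± 0.29 and 1.82 ± 0.28), as were 25.1% of all genes. The villus and crypt effects of the Vil1 mice differed for mt-Rnr1 (-1.49 ± 0.45, adjusted p = 0.032), a call that held in 11 of the 17 fits that left out 1 library and was lost without the low-count filter and with the animal as a block (-1.64 ± 0.47, adjusted p = 0.0501).

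Within the mitochondrial counts, the rRNA part was smaller without Eif4g2 in organoids and in Rosa26 crypts. In the flox/flox spheroids it was also smaller with 4-OHT than with DMSO in each line, although the groups overlapped. Values for Vil1 tissue are not shown here. In organoid set 1 it was 5.37%, 5.14% and 4.34% of mitochondrial counts with DMSO and 3.21%, 2.99% and 2.63% with 4-OHT. In set 2 it was 2.70% to 3.05% in flox/flox, 3.66% to 4.49% in flox/+ and 4.12% to 4.8% in CreER-only lines. The flox/flox lines overlapped with neither control. In Rosa26 crypts it was 1.55% to 2.24% in flox/+ and 0.906% to 1.31% in flox/flox animals, also without overlap, there with mRNA counts that had risen. In Rosa26 villi it was 3.07 ± 0.818% (SD, n = 5) and 3.01 ± 0.95% (n = 5). With A-485 it was 3.43% to 4.11% in DMSO, 2.80% to 4.41% at 3 µM, 2.16% to 2.52% at 5 µM and 1.97% to 2.25% at 10 µM.

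Count ratios of 2 genes within a library do not depend on the library total, and the 2 ratios described first here separated the genotypes in tissue. The ratios of mt-Cytb to mt-Nd1 and of mt-Rnr2 to mt-Nd1 were also taken and are not shown. mt-Rnr1 and mt-Rnr2 are released from the same precursor. Their log2 ratio of counts (mt-Rnr2 to mt-Rnr1) was 0.77, 0.63, 0.51, 0.69 and 0.69 in Rosa26 flox/+ crypts and 0.21, -0.14, 0.02 and 0.19 in flox/flox crypts. In Vil1 crypts it was 0.91, 0.82, 1.01 and 1.04 against 0.31, 0.13 and 0.37. It was 0.84 ± 0.13 against 0.22 ± 0.13 in Rosa26 villi and 0.98 ± 0.04 against 0.53 ± 0.17 in Vil1 villi (SD). The groups did not overlap in any of these 4 comparisons, nor in organoid set 1, where the ratio was 2.20, 2.01 and 2.04 with DMSO and 1.62, 1.64 and 1.58 with 4-OHT. In set 2 the flox/flox lines, at 1.34 to 1.71, overlapped with the flox/+ lines at 1.65 to 2.09. In the flox/flox spheroids it was lower with 4-OHT in 6 of 6 lines, with overlapping groups.

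The log2 ratio of mt-Nd2 to mt-Nd1, neighbouring complex I genes, was also lower in tissue without Eif4g2. It was -1.05 to -1.24 in flox/+ and -1.42 to -1.59 in flox/flox Rosa26 crypts. In Rosa26 villi it was -1.17 to -1.39 and -1.48 to -1.62. In Vil1 crypts it was -1.11 to -1.20 and -1.38 to -1.51, and in Vil1 villi -0.91 to -1.08 and -1.27 to -1.54. Again no group overlapped with its control, and the flox/flox organoids of set 2, at -1.14 to -1.22, did not overlap with flox/+ (-0.88 to -1.04) or CreER-only lines (-0.88 to -1.05). Organoid set 1 overlapped (-1.02 to -1.11 with DMSO, -1.09 to -1.13 with 4-OHT). A-485 moved this ratio the other way: it was -1.23 to -1.42 with DMSO and higher in each of the 4 lines at each dose, reaching -0.71 to -1.08 at 10 µM. The ratio of mt-Nd6 to mt-Nd5, which come from opposite strands, had means from -2.51 to -1.98 over the 21 groups and overlapped between genotypes in both mouse models, though not between flox/flox and control lines of organoid set 2. These ratios are descriptions, and they were not tested.

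**Figure D5:**
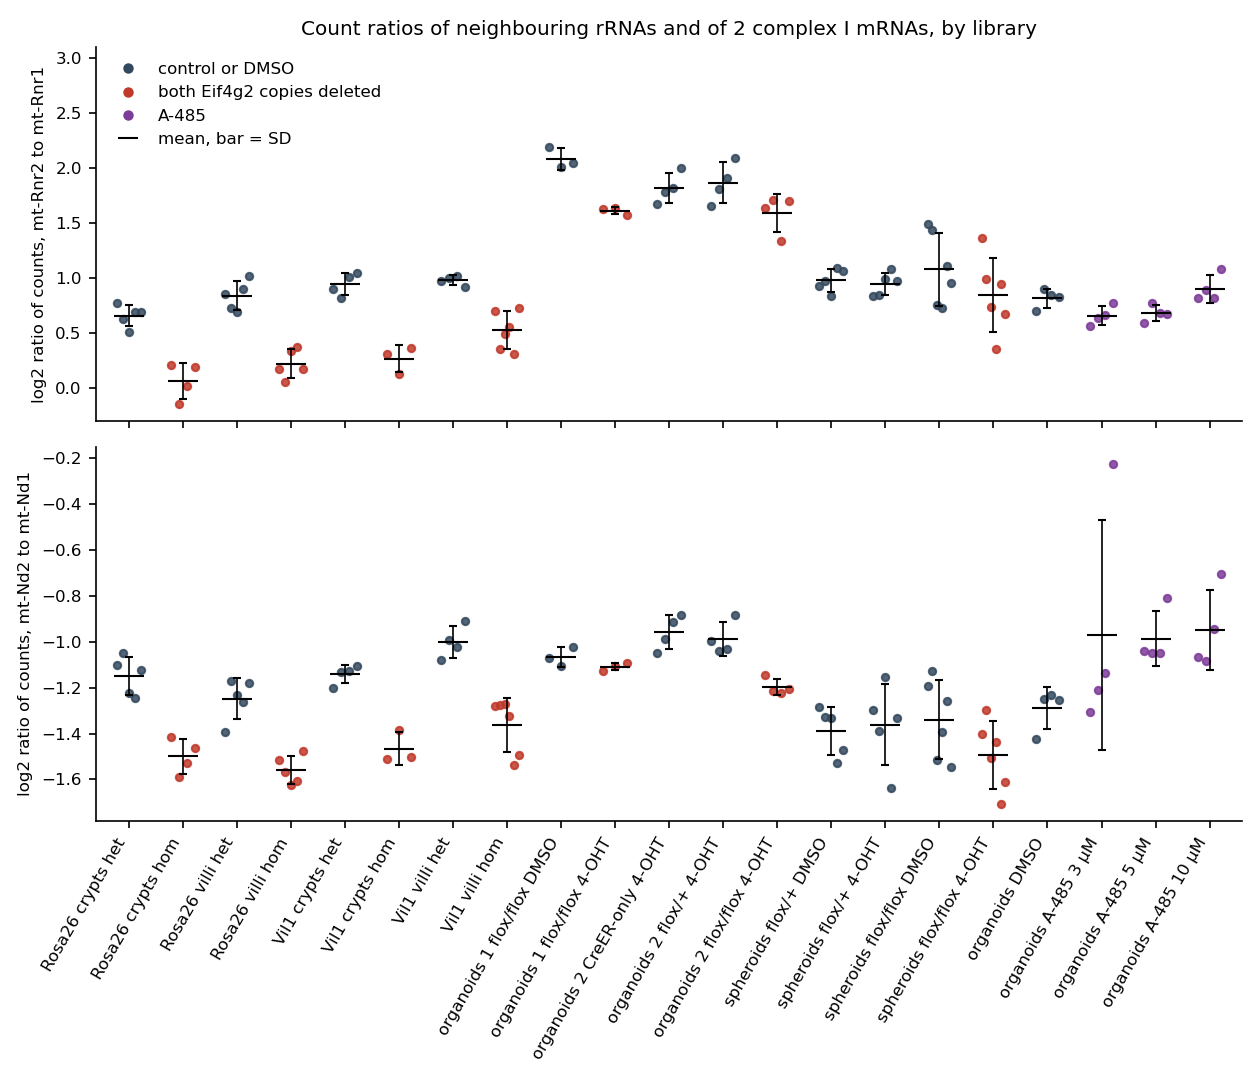
log2 ratio of counts of mt-Rnr2 to mt-Rnr1 (upper panel) and of mt-Nd2 to mt-Nd1 (lower panel) in each library, by group; bars mark the mean and SD. In crypts and villi of both mouse models the flox/flox libraries lie below their flox/+ controls without overlap in both panels.

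The nuclear copies were counted as genes of their own, so they could be set beside the copied mitochondrial genes. In Rosa26 crypts the 7 copies summed to 655 to 1727 CPM in flox/+ and 3248 to 6554 CPM in flox/flox animals. Gm28661, identical to mt-Co2 over the sequence shown above, had 190, 387, 158, 215 and 157 CPM in flox/+ and 1620, 873, 708 and 915 CPM in flox/flox crypts, a log2 fold change of 2.37 beside 2.49 for mt-Co2. Of the 7, 5 rose there, Gm28661, Gm10925 (copy of mt-Atp6), Gm28437 (mt-Co3), Gm28439 (mt-Nd4) and Gm29216 (mt-Co1), beside 8.63% of all genes. In Vil1 crypts Gm28439 and Gm29216 rose (1.05 and 1.25), beside 1964 of all 16954 genes tested. In organoid set 2, where edgeR called no mitochondrial mRNA, Gm10925, Gm28437 and Gm29216 rose in flox/flox against flox/+ lines (0.64, 0.45 and 0.89), beside 22.6% of all genes. Against CreER-only lines these copies and also Gm10222 and Gm28661 rose, beside 3112 of all 14220 genes tested. In the flox/flox spheroids, by contrast, Gm28661 had 153, 162, 115, 137, 130 and 72.0 CPM with DMSO and 140, 93.5, 100, 77.1, 83.7 and 62.8 CPM with 4-OHT, a smaller drop than that of mt-Co2. Gm10925 was the only copy that fell there (-1.03), beside 10% of all genes. The 6 copied genes made up 2.03 ± 0.195% of mitochondrial counts in flox/+ and 4.35 ± 0.485% in flox/flox Rosa26 crypts, and 2.14 ± 0.961% with DMSO and 0.777 ± 0.298% with 4-OHT in flox/flox spheroids (SD). Their part in the fold changes of the copied mRNAs was not tested.

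The 22 tRNA genes took 0.0547% to 0.513% of mitochondrial counts. mt-Tp (proline) led them with a mean of 3516 counts per library, and mt-Tf (phenylalanine) had 0 counts in every library. Of the 22, 12 had a mean of at least 10 counts, and 14 were called in at least 1 of 18 comparisons. The sequences of the 6 that the results turn on are printed with the anticodon in capitals (mt-Tl1 chrMT:2676-2750 and mt-Tw chrMT:4950-5016 on the plus strand; mt-Tn chrMT:5089-5159, mt-Tc chrMT:5192-5257, mt-Te chrMT:14071-14139 and mt-Tp chrMT:15356-15422 on the minus strand).
mt-Tl1: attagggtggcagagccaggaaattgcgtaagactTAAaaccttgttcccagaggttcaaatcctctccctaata
mt-Tw: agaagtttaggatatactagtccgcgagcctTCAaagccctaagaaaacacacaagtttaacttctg
mt-Tn: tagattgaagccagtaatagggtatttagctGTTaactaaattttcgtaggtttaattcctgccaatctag
mt-Tc: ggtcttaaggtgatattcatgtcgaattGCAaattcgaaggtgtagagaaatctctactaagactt
mt-Te: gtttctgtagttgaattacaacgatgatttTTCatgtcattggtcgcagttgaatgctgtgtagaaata
mt-Tp: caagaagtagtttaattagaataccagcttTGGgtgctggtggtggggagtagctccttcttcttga

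Several tRNAs fell in organoids without Eif4g2. In organoid set 1, 8 of the 17 tested fell with 4-OHT and none rose, beside 17.2% of all genes that fell. mt-Tw (tryptophan) was 12.7, 10.2 and 8.33 CPM with DMSO and 3.83, 3.19 and 2.45 CPM with 4-OHT, with no overlap (-1.77 ± 0.23, adjusted p = 0.0017), and mt-Tl1 (leucine) was 26.5, 19.9 and 20.7 CPM against 12.2, 11.04 and 10.7 CPM (-1.03 ± 0.14, adjusted p = 0.0018). In set 2, 6 of 13 fell in flox/flox against flox/+ lines and 3 of these also against CreER-only lines, beside 24.3% and 23.5% of all genes. mt-Tn (asparagine) was 2.03, 2.58, 2.80 and 2.44 CPM in flox/flox, 4.81, 6.27, 7.71 and 6.14 CPM in flox/+ and 6.04, 5.44, 7.68 and 6.65 CPM in CreER-only lines. The flox/flox lines overlapped with neither control (-1.34 ± 0.19, adjusted p = 3.8e-05, and -1.40 ± 0.19, adjusted p = 2.6e-05). mt-Tc (cysteine), its neighbour on the same strand, fell by 1.33 and 1.04 on the log2 scale.

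Between genotypes in tissue, 2 of 9 tested tRNAs rose in Rosa26 crypts, beside 8.63% of all genes, and 3 of 7 fell in Rosa26 villi, beside 18.2%. In Vil1 crypts 2 rose and 1 fell of 13, beside 29.3% of all genes called in either direction. In Vil1 villi 2 of 10 fell, beside 21.6%. The Vil1 counts were thus no higher than the shares of all genes. In Rosa26 villi mt-Te (glutamate) was 0.898, 1.02, 7.54, 4.15 and 2.67 CPM in flox/+ and 0.0979, 0.291, 0.314, 0.126 and 0.351 CPM in flox/flox animals, with no overlap (-3.91 ± 0.69, adjusted p = 0.0019). mt-Tw and mt-Tl1 fell there too (-3.63 and -2.72), and mt-Tl1 and mt-Tm (methionine) fell in Vil1 villi (-2.79 and -4.31). These 5 calls held in every alternative fit. However, mt-Tm had a mean of 5.83 counts per library over the series and at most 32, and mt-Te was at most 0.351 CPM in flox/flox Rosa26 villi. Both lay near the limit of detection, so their fitted folds are no measure of size. In crypts mt-Tp rose from 142, 170, 104, 143 and 102 CPM to 381, 407, 353 and 248 CPM in Rosa26 animals (1.52 ± 0.25, adjusted p = 0.0039) and by 1.46 ± 0.39 in Vil1 animals (adjusted p = 0.033). The Vil1 call held in 2 of the 7 fits that left out 1 library (those without flox/+ replicate 3 or flox/flox replicate 2), and was lost without the low-count filter, with the replicate block and with the Ddx3y covariate. mt-Te fell in Vil1 crypts, from 2.48 to 3.84 CPM to 0.428 to 1.65 CPM (-1.63 ± 0.48, adjusted p = 0.035), a call lost without flox/+ replicates 1 or 3 or flox/flox replicates 1 or 2. mt-Tl2 (leucine) rose in Rosa26 crypts on 4 to 15 counts in flox/+ and 12, 208, 23 and 96 counts in flox/flox libraries, which overlapped (3.05 ± 0.83, adjusted p = 0.032). That call held in 3 of the 9 fits that left out 1 library, with 1.70 without flox/flox replicate 3, and with the Ddx3y covariate the value was 0.61 (adjusted p = 0.75). mt-Tr (arginine) rose in Vil1 crypts (1.56 ± 0.37, adjusted p = 0.015).

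Between crypts and villi of the controls, 5 of 8 tested tRNAs were lower in crypts in Rosa26 mice, beside 36.4% of all genes. In Vil1 mice 6 were higher and 2 lower of 13, beside 35.2% and 32.7% of all genes (67.9% in either direction). These calls too are after TMM scaling, which in this contrast gave lower values than plain CPM for the mRNAs and rRNAs above. The villus effect of the deletion was lower than the crypt effect for 6 of 10 tRNAs in Rosa26 mice (mt-Tl1, mt-Tw, mt-Tr, mt-Tl2, mt-Te and mt-Tp), beside 4.86% of all genes, and for mt-Tl1 and mt-Tr of 13 in Vil1 mice, beside 6.14%. mt-Tr had the largest of these fitted differences at -6.45 ± 1.16 (adjusted p = 0.0029), and with mt-Tw at -3.20 ± 0.61 (adjusted p = 0.0043) it kept its call with the animal as a block. The other 4 Rosa26 calls did not. However, mt-Tr had a mean of 14.8 counts per library over the series and a read in only 74 of 92 libraries. Its fitted difference is therefore no measure of size.

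With A-485, 2, 4 and 6 of the 7 tested tRNAs fell at 3, 5 and 10 µM and none rose, while the share of all genes that fell went from 8.42% to 25.1% and 32.6%. mt-Tc was 18.7, 17.3, 11.9 and 18.9 CPM with DMSO, 5.05, 4.88, 5.61 and 4.01 CPM at 5 µM and 2.65, 3.29, 4.51 and 3.12 CPM at 10 µM. The log2 fold changes were -1.84 ± 0.27 and -2.42 ± 0.28 (adjusted p = 2.0e-05 and 5.5e-07), and no treated library at these doses overlapped with DMSO. mt-Tn was 9.22, 7.27, 5.67 and 10.9 CPM with DMSO and 1.69, 1.30, 1.37 and 0.231 CPM at 10 µM (-2.92 ± 0.49, adjusted p = 5.0e-05). mt-Tw fell from 2.18 to 3.43 CPM with DMSO to 0 in 3 libraries and 0.0685 CPM in the fourth at 10 µM, near the limit of what these depths can detect, so its fitted fold is no measure of size. The remaining called tRNAs were mt-Ta, mt-Ty, mt-Tg, mt-Th and mt-Ts2, each in organoids, spheroids or the crypt and villus contrast.

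The nuclear genes that maintain and express mitochondrial DNA were set beside the members as a list of 49, of which 47 or 48 passed the filter in each comparison. In Rosa26 crypts, where 12 of 13 mitochondrial mRNAs rose, 3 of 48 rose and 2 fell (8.63% and 11.6% of all genes), with a median log2 fold change of -0.01. Fastkd1, of a family that acts on mitochondrial RNA, rose (0.64 ± 0.19), Twnk, the replicative helicase, fell (-0.61 ± 0.19), and Tfam, which packages the DNA and starts transcription, was at -0.24 ± 0.11 (adjusted p = 0.15). In villi 13 of 47 rose in Rosa26 and 17 of 48 in Vil1 animals, beside 15% and 20.9% of all genes, and 4 and 5 fell, beside 18.2% and 21.6%. Pnpt1, an RNA-degrading phosphorylase, rose by 1.01 and 1.02 there, and Lrpprc, which stabilises mitochondrial mRNAs, by 0.46 and 0.72. In Vil1 animals Ppargc1a, a coactivator of mitochondrial biogenesis, fell in villi (-2.30 ± 0.67) and in crypts (-3.54 ± 0.58).

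With A-485 none of the 48 rose and 8, 27 and 32 fell at 3, 5 and 10 µM, beside the backgrounds of 8.42%, 25.1% and 32.6% given above. At 10 µM Lrpprc fell by 2.17 ± 0.15, Mgme1, a mitochondrial DNA exonuclease, by 2.38 ± 0.32, Tfam by 1.32 ± 0.13, Polrmt, the mitochondrial RNA polymerase, by 1.05 ± 0.23 and Tfb2m, a transcription factor that works with it, by 0.49 ± 0.12 on the log2 scale. Lrpprc and Tfam also fell at 3 and 5 µM (-0.56 and -1.31, -0.38 and -0.96). In organoid set 1, 4 rose and 5 fell (18.2% and 17.2% of all genes), with Fastkd1 higher (0.50) and Ppargc1b, a relative of Ppargc1a, lower (-1.15). In set 2, against flox/+ lines, 12 rose and 6 fell (22.6% and 24.3% of all genes), with Fastkd1 at 0.80 ± 0.10 and Slirp, the partner of Lrpprc, at -1.23 ± 0.23. In the flox/flox spheroids 3 rose and 4 fell with 4-OHT (9.01% and 10% of all genes). Tfb1m, a methyltransferase of the small mitochondrial rRNA, fell (-0.79 ± 0.19, adjusted p = 0.0059), and was also lower than in flox/+ lines with 4-OHT (-0.95 ± 0.20).

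Of 78 nuclear subunits of the respiratory chain and ATP synthase, 77 were tested. In Rosa26 crypts 2 rose and none fell, with Cycs, cytochrome c, at 0.54 ± 0.16. In Vil1 villi 38 fell and 1 rose (median -0.37), beside 21.6% and 20.9% of all genes. In organoids 36 fell and none rose in set 1 (median -0.31), and 46 fell and 4 rose in set 2 against flox/+ lines (median -0.26), beside 1 and 0 of the 13 mitochondrial mRNAs. Of all genes 17.2% and 24.3% fell in these contrasts. With A-485 44, 56 and 58 fell and 0, 0 and 1 rose at 3, 5 and 10 µM; Ndufa10, a complex I subunit, fell by 1.66 ± 0.12 at 10 µM. The shares of all genes that fell were the 8.42%, 25.1% and 32.6% above. In the controls 65 and 62 of the 77 were lower in crypts than in villi of the Rosa26 and Vil1 mice, as were 36.4% and 32.7% of all genes, while 33 and 31 of the 48 genes that maintain and express mitochondrial DNA were higher in crypts, as were 40.6% and 35.2% of all genes. The medians over the 77 were -0.67 and -0.88 after TMM scaling. In this contrast TMM gave lower values than plain CPM for the mRNAs and rRNAs above. Plain ratios are not shown for these lists, so the direction by plain CPM is not given.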

How the data were processed

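Whole-number counts for 92 libraries were deposited by the authors in 4 gene-level tables, per the file headers. Per the submitters' processing notes the builds are GRCm38 and mm10 and the aligner HISAT2 2.0.5; the counter, its annotation and its treatment of reads that fit several places are not given in the sources used here. Libraries were poly(A)-selected and strand-specific, per the labels' protocols. Groups came from the sample labels. Members, gene lists and tests were chosen with earlier results of these data known. The named nuclear genes are Tfam, Polrmt, Tfb2m, Lrpprc, Slirp and Pnpt1 and, per comparison and list, the called gene with the largest rise and fall at a mean log2 CPM of at least 3. Transfer RNAs are named where called or at a mean of at least 10 counts.

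Counts were tested with edgeR 4.0.16 in R 4.3.3 (robust quasi-likelihood F-test after the filterByExpr filter by group and TMM scaling), with Benjamini-Hochberg adjustment over all tested genes and a threshold of 0.05; rises and falls are on that scale, whereas CPM values use the plain library total. Shares, ratios and lists carry no test. Alternatives were DESeq2 1.42.0 (size factors, Wald test), no low-count filter, nuclear counts as library size, a replicate block, covariates and leaving out each library; the line or animal as a block in the contrasts between effects was added after the results were seen. Scaling alternatives moved the median of all genes by at most 0.0662 (log2). The tests were tried on simulated data first. Sequences are from GENCODE transcripts of GRCm38, matched by gene name. The numbers pair samples where the same lines or animals were used: correlations of deviations were 0.318 to 0.501 in organoid set 1, 0.385 to 0.783 and 0.626 to 0.857 in flox/flox and flox/+ spheroids, 0.0556 to 0.321 with A-485 and -0.00247 to 0.296 between crypts and villi.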

Additional observations from a re-analysis of the deposited data

Results flagged for a closer look

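Among groups of 4 to 10 libraries, 4 measures were screened for a library that lies far from the rest, 72 group and measure pairs in all, and 6 stood out, where chance gives about 1 in 20. The mitochondrial share of replicate 4 was 3.23% at 10 µM A-485 (next highest 2.25%) and 3.44% at 5 µM (next 2.46%), the same line. That line also had the highest log2 ratio of mt-Nd2 to mt-Nd1 at 3 µM (-0.22, next -1.14) and at 5 µM (-0.81, next -1.04). With DMSO it was replicate 1 that had the lowest ratio (-1.42, next -1.25). In organoid set 2, CreER-only replicate 3 had the highest rRNA part of mitochondrial counts (4.796%, next 4.24%).

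Effects of the deletion that differed between villi and crypts of the Rosa26 mice, villus effect minus crypt effect on the log2 scale by edgeR's interaction contrast, were -4.24 ± 0.95 for mt-Co2 (SE, adjusted p = 0.011), -3.61 ± 1.07 for mt-Atp8 (0.039), -3.36 ± 1.06 for mt-Atp6 (0.048), -3.70 ± 1.01 for mt-Co3 (0.027), -3.16 ± 0.77 for mt-Nd3 (0.016), -4.63 ± 1.08 for mt-Nd4l (0.014) and -2.34 ± 0.73 for mt-Cytb (0.047). With the animal as a replicate block none of these 7 was called. In the Vil1 mice the same contrast was -1.49 ± 0.45 for mt-Rnr1 (adjusted p = 0.032), and -1.64 ± 0.47 (adjusted p = 0.0501) with that block.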

How the results depend on the processing

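Of 138 calls on single mitochondrial genes, 71 held under every alternative and none changed sign. DESeq2 size factors and nuclear counts as library size kept all 138.

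Counts of called mRNAs that moved by over 1.5 times were as follows, with the main count first. Without the low-count filter: Vil1 villi 1 to 0, control crypts against villi 4 to 0 (Rosa26) and 1 to 0 (Vil1), flox/flox spheroids 5 to 3, A-485 6 to 3 at 3 µM and 5 to 3 at 10 µM, and the Rosa26 villus and crypt contrast 7 to 3. With DESeq2's Wald test: Rosa26 villi 0 to 1, Vil1 crypts 0 to 7, Vil1 villi 1 to 0, Vil1 control crypts against villi 1 to 2, organoid set 1 1 to 2, 4-OHT spheroids flox/flox against flox/+ 0 to 3, and the villus and crypt contrasts 7 to 13 (Rosa26) and 0 to 3 (Vil1). With the replicate block, where numbers mark shared lines or animals: control crypts against villi 0 in both models, and 7 and 8 with A-485 at 5 and 10 µM. Where groups share only a number, the replicate block gave 1 in Rosa26 villi, 1 in Vil1 crypts, 3 in Vil1 villi, and 3 and 2 in organoid set 2 against flox/+ and CreER-only lines; with it the 4-OHT spheroid calls of mt-Rnr1 and mt-Rnr2 between genotypes were lost. Covariates gave 3 in Rosa26 villi (animal series) and 0 in Vil1 villi (Ddx3y). An alternative chosen after seeing the data, the line or animal as a replicate block in the contrasts between effects, moved the Rosa26 villus and crypt contrast from 7 to 0 (this fit also drops 1 villus library without a crypt partner), left Vil1 and spheroids at 0, kept 4 calls on single genes and lost 12; with it both rRNAs were called between the spheroid responses. The cause of these shifts was not tested. The difference in share between Vil1 crypt genotypes was 12.4 percentage points of all counts, and 25.1 and 25.5 as a percentage of nuclear counts with and without the 10 most abundant nuclear genes.

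Leaving out 1 library gave 6 to 13 mRNAs in Rosa26 crypts, 0 to 4 in Rosa26 villi, 0 to 10 in Vil1 crypts, 0 to 6 in Vil1 villi, 0 to 11 and 0 to 2 for control crypts against villi, 0 to 1 in organoid set 1, 0 to 1 and 0 to 2 in set 2 against flox/+ and CreER-only lines, 3 to 7 in flox/flox spheroids, 4 to 10 for spheroids against organoids, 3 to 5, 2 to 8 and 2 to 9 with A-485, and 3 to 13 and 0 to 9 for the Rosa26 and Vil1 villus and crypt contrasts. The lower depth of the A-485 libraries limits their tRNA values.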
